A study of Rattus norvegicus with 20 samples.

Results

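Mitochondrial import and carrier genes were taken as all gene symbols in the count table that begin with Slc25a, Timm or Tomm followed by a digit, leaving out names that contain -ps. The rule used names and no measured value. It gave 60 of the 17337 symbols, 40 Slc25a, 13 Timm and 7 Tomm genes. Type II alveolar cells of Sprague-Dawley rats were grown for 4 days on silastic membranes coated with fibronectin, on which they form monolayers of type I-like cells, and 3' end RNA sequencing (QuantSeq) was run on 20 libraries, 5 in each of 4 groups. Unstretched cells (NS) received 0.01% DMSO for 24 h, while stretched cells (S) had the same DMSO for 18 h, followed by 6 h of cyclic biaxial stretch, 15 cycles per min at a 25% change in surface area. S_PI cells received 18 h of 1 µM GSK2606414, which inhibits PERK (a stress kinase of the endoplasmic reticulum), before the same stretch, and NS_PI cells received it without stretch, for 24 h by the treatment protocol and 18 h by the sample labels. For the inhibitor groups the labels name no DMSO. The sources used here state neither age nor sex of the animals. RNA of 4 monolayers from 1 animal was pooled for each library, and the replicate number is taken as the animal, so each group holds 5 animals and every animal is in every group. Nearly all mitochondrial proteins are made in the cytosol, and the members are the machinery that brings them in and the carriers that move metabolites. The TOM complex (Tomm genes) receives precursors at the outer membrane. TIM23 passes those with an N-terminal signal into the matrix, while small TIM chaperones hand carrier precursors to TIM22 for insertion into the inner membrane. The SLC25 carriers inserted there exchange nucleotides, phosphate, amino acids, carboxylates, cofactors and iron between cytosol and matrix.

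The libraries held 999209 to 3131541 counts assigned to genes, and the members took 0.369 to 0.555% of them. The detection floor, set at 3 counts, equalled 1.07 to 3.05 CPM (a gene's count relative to library size, the latter scaled with TMM factors). Animal was a term of every test because the authors' deposited table is named as controlling for rat. Type I markers summed to 2450 to 9063 CPM in NS, with 15 of 16 above the floor. Endothelial markers summed to 1.63 to 9.92 CPM in NS, with Cdh5 and Cldn5 at 0. Fibroblast and smooth muscle markers summed to 3272 to 7546 CPM in NS and 3995 to 12510 in S, where type I markers summed to 1757 to 7607. With inhibitor the fibroblast and smooth muscle sums were 3267 to 10700 CPM in NS_PI and 4027 to 14360 in S_PI. In NS, airway epithelial markers summed to 567 to 2273 CPM, type II to 374 to 802 and mesothelial to 124 to 250. In S these 3 sums were 273 to 2109, 388 to 909 and 142 to 881 CPM. Macrophage and leukocyte markers summed to 1711 to 10710 CPM in NS and 2243 to 14390 in S, and to 1687 to 10180 in NS_PI and 2856 to 13480 in S_PI. With stretch, 5 of 12 tested leukocyte markers rose in S vs NS and 7 of 12 in S_PI vs NS_PI, and 0 fell in either; 18 were on that list. Of 7 tested fibroblast and smooth muscle markers, 1 rose and 0 fell in S vs NS, and 3 rose and 1 fell in S_PI vs NS_PI. Of 14 tested type I markers, 5 fell and 0 rose in S vs NS, and 7 fell and 1 rose in S_PI vs NS_PI. Over all genes tested, 12.5% rose and 12.4% fell in S vs NS, and 15.2% rose and 15.3% fell in S_PI vs NS_PI. Among 10 tested type II markers, 1 (Cebpa) rose and 0 fell in each comparison. Among 2 tested mesothelial markers, 1 (Msln) rose in S vs NS and 0 were called in S_PI vs NS_PI. The 2 tested airway epithelial markers gave 0 calls in either. The part of such cells in the results below was not tested. In bulk RNA, fewer cells of a type and less RNA per cell cannot be told apart.

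Promoter sequences are shown for 4 members that passed the test in a stretch comparison, because they are the members among those called that hold a motif searched for in the bases before the start. RefSeq (build GRCr8) gave a promoter of 300 bases, 250 before the start and 50 after it, for 53 of the 60 members, and for 10 of the 12 members called. Each line gives the 250 bases before the start, 5′ to 3′, with motif letters in capitals. The motif is TGACGTCA (cAMP response element) in Slc25a25 and Slc25a33, followed in Slc25a33 by CACGTG (E-box), and ACTTCCGG (GABP/ETS, here also read on the other strand) in Tomm70a and Timm10b. Slc25a25 lies at chr3:36116582-36116831, minus strand, Slc25a33 at chr5:165502974-165503223, minus strand, Tomm70a (Tomm70 in RefSeq) at chr11:56886277-56886526, minus strand, and Timm10b at chr1:169392105-169392354, plus strand. In RefSeq the Slc25a25 gene spans chr3:36106448-36139812 and the Slc25a33 gene chr5:165478070-165518186, so the stretches of these genes lie inside them. Starts further upstream were not searched, and counts of 3' ends do not tell which start was used.
Slc25a25: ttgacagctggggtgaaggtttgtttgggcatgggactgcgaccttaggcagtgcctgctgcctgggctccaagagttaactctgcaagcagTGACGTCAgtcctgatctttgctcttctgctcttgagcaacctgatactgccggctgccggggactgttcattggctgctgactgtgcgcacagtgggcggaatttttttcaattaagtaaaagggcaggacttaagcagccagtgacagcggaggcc
Slc25a33: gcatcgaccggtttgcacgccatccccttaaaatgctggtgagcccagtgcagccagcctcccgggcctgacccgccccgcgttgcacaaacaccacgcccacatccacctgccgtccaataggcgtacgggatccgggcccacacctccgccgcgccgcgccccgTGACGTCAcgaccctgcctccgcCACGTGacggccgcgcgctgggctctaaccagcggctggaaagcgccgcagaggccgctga
Tomm70a: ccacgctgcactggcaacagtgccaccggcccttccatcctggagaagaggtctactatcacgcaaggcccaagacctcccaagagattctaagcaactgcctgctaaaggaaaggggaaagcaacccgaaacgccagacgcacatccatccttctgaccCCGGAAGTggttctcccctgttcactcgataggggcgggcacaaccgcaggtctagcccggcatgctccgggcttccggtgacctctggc
Timm10b: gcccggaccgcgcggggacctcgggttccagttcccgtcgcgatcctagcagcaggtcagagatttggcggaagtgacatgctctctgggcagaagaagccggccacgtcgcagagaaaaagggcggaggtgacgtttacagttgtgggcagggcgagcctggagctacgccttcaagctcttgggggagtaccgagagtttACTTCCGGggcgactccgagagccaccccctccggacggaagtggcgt

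The cAMP response element began 158 bases before the start in Slc25a25 and 84 before it in Slc25a33, and these were the 2 of 53 member promoters (3.77%) that held it, against 1.83% of the 33469 promoters in the table. The GABP/ETS letters stood in 9 of 53 (17%), among them Tomm20, Slc25a17, Slc25a20 and Timm10, against 3.81% of all promoters. The share over all promoters was not matched for gene class or base composition. The E-box stood in 9.43% of member promoters and 6.42% of all, and the AP-1 letters TGANTCA in 7.55% and 7.33%. The C/EBP-ATF letters TGATGNAA, of the kind that ATF4 binds, stood in Timm22 and Tomm40l, which is 3.77% of member promoters, against 3.98% of all. The NRF1 motif stood in Tomm7 (1.89% against 0.852%), and a looser form of it, with any letters in its middle and so including the strict one, in 4 members (7.55% against 5.58%), Tomm7, Tomm20, Timm21 and Slc25a10. Both strands were searched in all 300 bases. Of the 10 called members with a promoter, 6 held none of these letters. A match describes the letters and is no evidence of binding.

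Slc25a3, the phosphate carrier, was the highest member at a mean of 1076 CPM over the 20 libraries, followed by Slc25a4, an ADP/ATP carrier, at 726, the small TOM subunit Tomm7 at 478 and the presequence receptor Tomm20 at 276 CPM. QuantSeq gives 1 fragment per transcript near its 3' end, so CPM was not divided by length and levels of different genes also depend on how well each 3' end is annotated. Of the 60 members, 38 passed the filter on low counts, 24 Slc25a, 10 Timm and 4 Tomm genes, with means from 5.50 CPM (Slc25a30) upward, and 35 had a mean of at least 10 CPM. The other 22 had means of 2.66 CPM (Slc25a29) or less. Among them were genes that act in import in most cells. Tomm40, the channel of the TOM complex, had 11 counts over all 20 libraries, and Timm23, the channel of TIM23, had 31. Timm17b, a partner of Timm23, had 0 counts, as did Slc25a22 and Slc25a54, and Timm17b and Slc25a22 are each listed under 2 gene identifiers in the authors' deposited table. Whether these low counts reflect the annotated 3' ends was not tested, and they are not read as absence of the transcript. The remaining members below the filter were the TOM-related Tomm34 and Tomm40l, the small TIM Timm8a2, the ornithine carriers Slc25a15 and Slc25a2, the glutamate carrier Slc25a18, the oxodicarboxylate carrier Slc25a21, the ATP-Mg/phosphate carriers Slc25a23 and Slc25a41, the S-adenosylmethionine carrier Slc25a26, the uncoupling-protein-like Slc25a27, the glutathione-related Slc25a40, and Slc25a34, Slc25a35, Slc25a47 and Slc25a53.

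**Figure D1:**
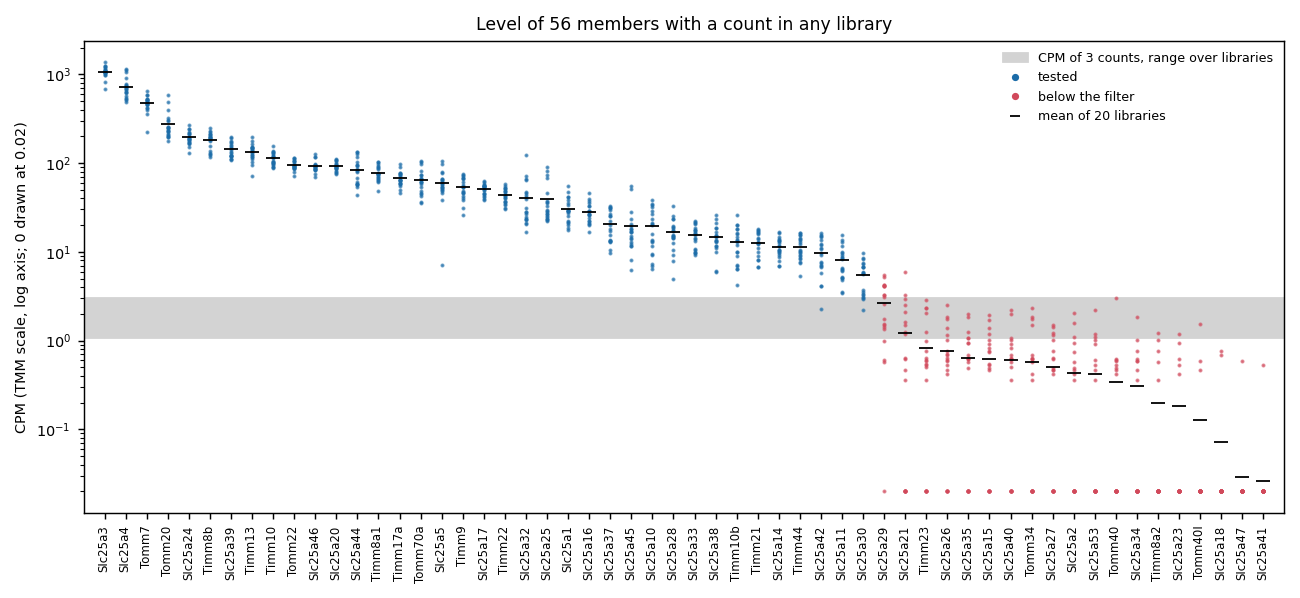
CPM (log axis) of 56 members with a count in any library; points are the 20 libraries, bars the mean, and the grey band the value of 3 counts over the libraries. The 37 tested members drawn lie above the band by their means, from 5.50 CPM for Slc25a30 to 1076 CPM for Slc25a3, and the means of the members below the filter lie in or under it.

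The effect of 6 h of stretch was read from S vs NS, and its effect in the presence of the PERK inhibitor from S_PI vs NS_PI. In S vs NS, 9 of 38 members (23.7%) were called at an adjusted p below 0.05, against 24.9% of all 8320 genes tested; 5 rose, where 12.5% of all genes rose, and 4 fell, where 12.4% fell. In S_PI vs NS_PI, 8 members (21.1%) were called, against 30.5% of all genes; 5 rose (15.2% of all) and 3 fell (15.3%). The members' shares thus lay near or under those of all genes. In S vs NS, leaving out animals 1 to 5 in turn called 7, 4, 7, 5 and 7 members, and 1784, 1418, 1437, 1696 and 1584 of all genes against 2075 with every animal. In S_PI vs NS_PI it called 11, 7, 4, 6 and 4 members, and 2453, 2146, 1872, 1974 and 1839 of all genes against 2534. Their median log2 fold change was -0.06 in S vs NS and -0.02 in S_PI vs NS_PI, against -0.01 and -0.02 over all genes. Scaled by library size alone, the median of all genes moved to -0.12 in both comparisons, and 4 members rose and 6 fell in S vs NS, and 4 rose and 7 fell in S_PI vs NS_PI. With upper-quartile scaling 4 rose and 5 fell, and 4 rose and 6 fell. All values below stand on the TMM scale. Both comparisons called 5 members, Slc25a32, Slc25a37, Slc25a44, Tomm70a and Slc25a45, each in 1 direction, which is 55.6% of the members called in S vs NS and 62.5% of those called in S_PI vs NS_PI; the comparisons share animals but no library. Over all genes these shares were 70.7% and 57.9%. Of the 38 members, 26 were called in neither, as were 5179 of all 8320 genes tested. NS and S values did not overlap for 3 members (7.34% of all genes), Slc25a32, Slc25a44 and Slc25a42, and NS_PI and S_PI values for 4 (13.8% of all genes), Slc25a32, Slc25a37, Slc25a44 and Tomm70a.

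**Figure D2:**
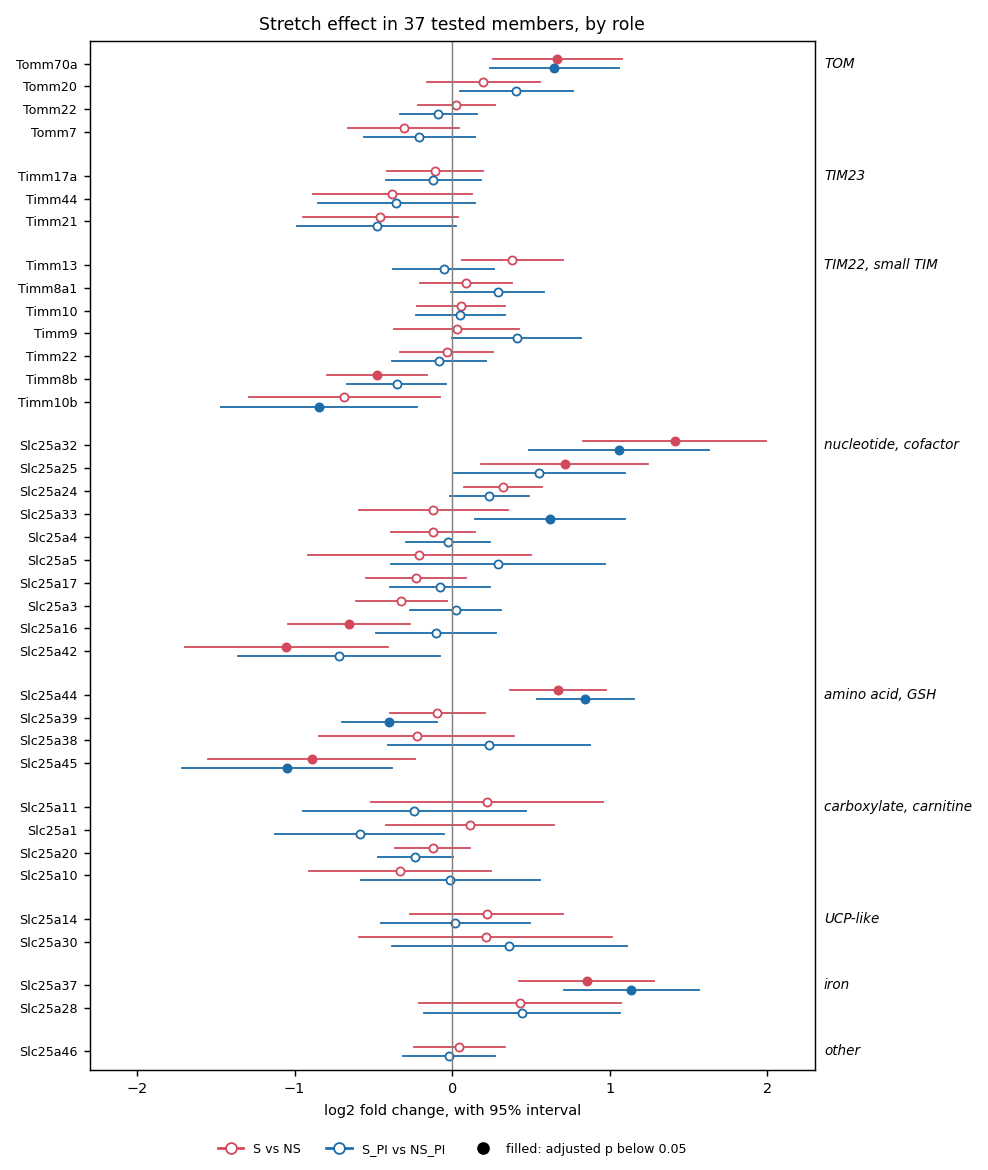
Log2 fold change with stretch and its 95% interval in 37 of the 38 tested members, ordered by role, without inhibitor (red) and with it (blue); filled points passed an adjusted p below 0.05. Slc25a32, Slc25a37, Slc25a44 and Tomm70a are filled on the right and Slc25a45 on the left in both comparisons, and most other intervals cross 0.

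At the outer membrane, the receptor Tomm70a rose with stretch and the other tested TOM genes were not called. Tomm70a (ENSRNOG00000001640), which binds carrier precursors and the chaperones that bring them, stood in animals 1 to 5 at 36.5, 35.5, 65.7, 61.9 and 53.7 CPM in NS and at 60.8, 106, 103, 57.96 and 74.04 CPM in S. It was higher in S in 4 of 5 animals, animal 4 being the exception, and the groups overlapped. With inhibitor it stood at 61.9, 47.9, 45.9, 45.1 and 42.3 CPM in NS_PI and 68.2, 97.6, 80.5, 73.9 and 66.1 CPM in S_PI. Every S_PI library was above every NS_PI library. Its log2 fold change was 0.67 ± 0.20 (SE, n = 5 animals, adjusted p = 0.0174) in S vs NS and 0.65 ± 0.20 (adjusted p = 0.0162) in S_PI vs NS_PI. The first call was lost without animal 2 (adjusted p = 0.113) and the second without animal 3 (0.0607) or animal 5 (0.0547); over the alternatives adjusted p ranged from 0.0088 to 0.113 and from 0.00389 to 0.0607.

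Tomm20, the receptor for presequences, stood at 395, 307, 197, 196 and 247 CPM in NS and 585, 222, 251, 214 and 320.0 CPM in S, and at 238, 230.5, 230.4, 202 and 178 CPM in NS_PI and 488, 207, 254, 258 and 299 CPM in S_PI. Animal 1 gave the highest value in each group. Its log2 fold change was 0.20 ± 0.17 (adjusted p = 0.429) without inhibitor and 0.41 ± 0.17 (0.0791) with it, positive in 4 of 5 animals in each, and with inhibitor it passed without animal 2. Tomm7, which stabilises the complex, stood at 513, 457, 502, 525 and 469 CPM in NS, 223, 469, 578, 361 and 393 in S, 646, 591, 529, 469 and 477 in NS_PI and 518, 488, 509, 415 and 423 in S_PI. The S library of animal 1 was the lowest of the 20. Its log2 fold changes, -0.31 ± 0.17 and -0.21 ± 0.17, did not pass (adjusted p = 0.191 and 0.37). Tomm22, the central receptor, had log2 fold changes of 0.02 ± 0.12 and -0.09 ± 0.12, with 95% intervals of -0.22 to 0.27 and -0.33 to 0.16.

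Of the 10 tested Timm genes, edgeR called 0 higher, and Timm8b and Timm10b lower, each in 1 comparison. Over all genes tested, 12.5% rose and 12.4% fell in S vs NS, and 15.2% and 15.3% in S_PI vs NS_PI. With so few genes, the Timm counts are near those shares. Timm8b (ENSRNOG00000009888), a small chaperone of the intermembrane space, stood at 248, 207, 178, 194 and 225 CPM in NS and 123, 116, 193, 127 and 200.2 CPM in S. It was lower in S in 4 of 5 animals, and animal 3 was higher. In NS_PI it stood at 229, 198, 179.8, 213 and 211 CPM and in S_PI at 198, 131, 137, 156 and 194 CPM, lower with stretch in 5 of 5 animals. Its log2 fold change was -0.48 ± 0.15 (adjusted p = 0.0258) in S vs NS and -0.35 ± 0.15 in S_PI vs NS_PI, which did not pass (0.0795) but did with upper-quartile scaling (0.0352), by library size alone (0.0336) and without animal 1 (0.0433). The call in S vs NS was lost without animal 1 (adjusted p = 0.103), 2 (0.136) or 4 (0.0894) and when the animal term was dropped (0.0891), and its range over the alternatives was 0.0107 to 0.136.

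Timm10b, a small TIM that docks the chaperones on TIM22 and is listed under 2 gene identifiers in the authors' deposited table, stood at 18.00, 9.87, 19.8, 15.9 and 17.9 CPM in NS and 20.1, 6.42, 9.89, 7.12 and 6.44 CPM in S. In NS_PI it stood at 13.5, 14.6, 16.3, 12.1 and 25.99 CPM and in S_PI at 13.8, 4.27, 6.999, 12.96 and 8.86 CPM. Animals 1 and 4 were higher in S_PI than in NS_PI and animals 2, 3 and 5 were lower. The log2 fold change was -0.85 ± 0.30 with inhibitor (adjusted p = 0.0366) and -0.68 ± 0.29 without it (0.091). The call with inhibitor was lost without animal 2 (adjusted p = 0.161), 3 (0.134) or 5 (0.158) and when the animal term was dropped (0.137), and its range over the alternatives was 0.00844 to 0.161, while the fall in S vs NS passed without animal 1 (-1.02, adjusted p = 0.0176) and by library size alone (0.045). Timm17a, Timm21 and Timm44, which belong to or serve TIM23, had log2 fold changes of -0.11, -0.46 and -0.38 in S vs NS and -0.12, -0.48 and -0.35 in S_PI vs NS_PI, and 0 of 3 passed. The channel gene Timm22 and the chaperones Timm8a1, Timm9, Timm10 and Timm13 also did not pass, with values of -0.03 to 0.38 and -0.08 to 0.41.

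Slc25a32, a carrier for folate and FAD, had the largest rise among the members in S vs NS. Slc25a32 (ENSRNOG00000004403; GRCr8 chr7:72024535-72045692 in RefSeq) stood in animals 1 to 5 at 16.6, 24.7, 22.9, 21.2 and 28.2 CPM in NS and at 123, 72.4, 47.6, 28.5 and 39.3 CPM in S. All S libraries lay above all NS libraries, and animal 1 gave the highest S value and the lowest NS value. With inhibitor it stood at 20.5, 23.3, 31.1, 23.7 and 26.7 CPM in NS_PI and 45.8, 65.9, 64.7, 44.2 and 41.6 CPM in S_PI, again without overlap. It rose 2.66-fold without inhibitor (log2 1.41 ± 0.28, adjusted p = 0.00119) and 2.08-fold with it (log2 1.06 ± 0.27, adjusted p = 0.00638), in 5 of 5 animals each. Both calls held under all 13 alternatives run, with adjusted p from 1.48e-05 to 0.0158 and from 0.000678 to 0.04. Without animal 1 the log2 fold change in S vs NS was 0.96.

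Slc25a25 and Slc25a33, whose promoters hold the cAMP response element letters, were each called in 1 comparison. Slc25a25, a calcium-regulated carrier of ATP-Mg and phosphate, stood at 22.6, 45.9, 36.6, 23.6 and 25.5 CPM in NS and 35.7, 81.7, 91.5, 26.4 and 29.6 CPM in S, and at 37.7, 22.1, 27.9, 26.5 and 24.5 CPM in NS_PI and 23.5, 73.2, 67.1, 28.97 and 32.7 CPM in S_PI. Animals 2 and 3 had the highest values in S and in S_PI, and with inhibitor animal 1 was lower in the stretched cells. The log2 fold change was 0.71 ± 0.25 in S vs NS (adjusted p = 0.0443), positive in 5 of 5 animals, and 0.55 ± 0.26 in S_PI vs NS_PI (0.113). It no longer passed without animal 2 (adjusted p = 0.0766), 3 (0.188), 4 (0.061) or 5 (0.06), and when the animal term was dropped (0.183), and its range over the alternatives was 0.0202 to 0.188. With inhibitor it passed without animal 1 (0.92, adjusted p = 0.00842).

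Slc25a33, a carrier of pyrimidine nucleotides, stood at 13.8, 17.8, 21.1, 10.01 and 17.4 CPM in NS and 16.1, 20.3, 10.5, 9.15 and 16.1 CPM in S, where 2 of 5 animals were higher. With inhibitor it stood at 15.4, 10.8, 14.2, 9.75 and 9.66 CPM in NS_PI and 18.3, 21.96, 13.4, 17.5 and 22.5 CPM in S_PI, where 4 of 5 were higher. The log2 fold change was -0.12 ± 0.23 (adjusted p = 0.734) without inhibitor and 0.62 ± 0.23 (adjusted p = 0.0443) with it. It no longer passed without animal 2 (adjusted p = 0.16), 4 (0.125) or 5 (0.183), when the animal term was dropped (0.0927) and scaled by library size alone (0.0894), and its range over the alternatives was 0.0217 to 0.183. The difference between these stretch effects, given with the interaction below, did not pass.

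Slc25a16 and Slc25a42, carriers linked to coenzyme A, fell in S vs NS. Slc25a16 (ENSRNOG00000000387) stood at 46.2, 39.5, 29.1, 24.2 and 26.6 CPM in NS and 16.6, 25.7, 21.01, 20.3 and 19.96 CPM in S, lower in 5 of 5 animals, and animal 1 had the highest NS and the lowest S value. In NS_PI it stood at 37.2, 28.8, 26.4, 32.98 and 25.99 CPM and in S_PI at 33.2, 28.7, 22.2, 35.1 and 22.5 CPM. Its log2 fold change was -0.66 ± 0.19 (adjusted p = 0.014) without inhibitor and -0.10 ± 0.18 (0.704) with it. Without animal 1 the first was -0.43 and did not pass (adjusted p = 0.106; 0.00616 to 0.106 over its alternatives).

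Slc25a42 stood at 12.00, 14.8, 11.2, 12.4 and 15.2 CPM in NS and 7.54, 5.71, 6.80, 4.07 and 7.08 CPM in S, without overlap, and at 6.98, 15.4, 16.3, 10.7 and 9.66 CPM in NS_PI and 2.29, 13.4, 7.58, 9.15 and 4.09 CPM in S_PI. It was lower in the stretched cells of 5 of 5 animals in both. Its log2 fold change was -1.05 ± 0.31 (adjusted p = 0.0171) and -0.72 ± 0.31 (0.0825, not past the threshold). The fall in S vs NS no longer passed without animal 2 (adjusted p = 0.0703), 4 (0.0559) or 5 (0.0564) and when the animal term was dropped (0.0596), and its range over the alternatives was 0.0096 to 0.0703. Some of its libraries lay near the detection floor.

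The 2 highest members were not called with stretch. Slc25a3 stood at 1184, 1213, 976, 1057 and 1372 CPM in NS and 676, 1047, 1050.0, 1042 and 829 CPM in S, with log2 -0.32 ± 0.14 (adjusted p = 0.0943). Under upper-quartile scaling, and scaled by library size alone, the fall was called. With inhibitor it stood at 1079.9, 1068, 986, 1241 and 1124 CPM in NS_PI and 1227, 1026, 1090.0, 1114 and 1110.4 CPM in S_PI, with log2 0.02 ± 0.14, whose sign turned under upper-quartile scaling, library size alone and without animal 1. Animal 1 gave the lowest value in S and the highest in S_PI. Slc25a4 stood at 1156, 754, 543, 668 and 733 CPM in NS, 1069, 509, 576, 630.5 and 778 in S, 900.3, 615, 629, 706 and 679.6 in NS_PI and 1108, 489, 532, 741 and 705 in S_PI, highest in animal 1 in every group. Animal accounted for 83.4% of the variance of its log2 CPM, and its stretch effects were -0.12 ± 0.13 and -0.03 ± 0.13, neither past the threshold. The sign of both turned without animal 2, and that with inhibitor also without animal 3 and when the animal term was dropped. Slc25a24, which like Slc25a25 carries ATP-Mg and phosphate, had 0.32 ± 0.12 in S vs NS and 0.24 ± 0.12 in S_PI vs NS_PI. It was called in neither by edgeR with TMM scaling, the filter on low counts and every animal (adjusted p = 0.0508 and 0.137). In S vs NS it was called higher by DESeq2, with DESeq2 size factors in edgeR, with the filter at a mean of 10 CPM and without animal 5. The ADP/ATP carrier Slc25a5 and the peroxisomal Slc25a17 stood at -0.21 and -0.23 without inhibitor and at 0.29 and -0.08 with it, and Slc25a5 passed with inhibitor when animal 1 was left out. Without inhibitor Slc25a5 was higher in S in 4 of 5 animals. Its S value in animal 1 was 7.04 CPM, where the others were 50.7 to 63.0. Reads of near-identical copies could be lost from genes such as Slc25a5, since records that aligned to several places, 35.5 to 57.7% of all records, were not assigned to genes.

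Among amino acid and glutathione carriers, Slc25a44 rose and Slc25a45 fell in both comparisons. Slc25a44 (ENSRNOG00000025269), a carrier of branched-chain amino acids, stood at 84.9, 84.4, 57.7, 57.1 and 58.04 CPM in NS and 135, 102, 92.1, 95.6 and 117 CPM in S, and at 60.5, 67.1, 53.8, 58.1 and 43.8 CPM in NS_PI and 135, 95.8, 80.5, 127 and 78.4 CPM in S_PI. Stretched and unstretched values did not overlap in either. It rose 1.59-fold (log2 0.67 ± 0.15, adjusted p = 0.00266) and 1.80-fold (log2 0.84 ± 0.15, adjusted p = 0.000282), in 5 of 5 animals each. Both calls held under all 13 alternatives, with adjusted p from 0.00022 to 0.0311 and from 2.59e-06 to 0.00475.

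Slc25a45 (ENSRNOG00000030616) stood at 51.2, 16.8, 14.3, 20.6 and 23.3 CPM in NS and 16.6, 11.8, 12.98, 12.2 and 11.6 CPM in S, and at 55.8, 17.9, 27.9, 19.5 and 17.1 CPM in NS_PI and 6.30, 15.3, 14.00, 18.3 and 8.18 CPM in S_PI. It was lower with stretch in 5 of 5 animals in both, and animal 1 was far above the others in the unstretched groups. Its log2 fold change was -0.89 ± 0.32 (adjusted p = 0.0431) and -1.05 ± 0.32 (adjusted p = 0.0168). Without animal 1 these were -0.61 (adjusted p = 0.0908) and -0.57 (0.0837), neither past the threshold. The call in S vs NS was also lost without animal 2 (adjusted p = 0.0657), 3 (0.0625), 4 (0.0758) or 5 (0.13) and when the animal term was dropped (0.118), and that in S_PI vs NS_PI without animal 3 (0.0522) or 5 (0.0559); adjusted p ranged from 0.0159 to 0.13 and from 0.00334 to 0.0837 over the alternatives.

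Slc25a39, a carrier of glutathione, stood at 119.5, 119, 161, 148 and 178 CPM in NS and 156, 112, 119.9, 175 and 111 CPM in S, with log2 -0.09 ± 0.15 (adjusted p = 0.68). With inhibitor it stood at 147, 128, 195, 170.5 and 192 CPM in NS_PI and 108, 123, 133, 120.4 and 141 CPM in S_PI and fell in 5 of 5 animals, with log2 -0.40 ± 0.15 (adjusted p = 0.042). It no longer passed without animal 3 (adjusted p = 0.155), 4 (0.106) or 5 (0.0979) and when the animal term was dropped (0.104), and its range over the alternatives was 0.0123 to 0.155. Slc25a38, a glycine carrier, had log2 fold changes of -0.22 ± 0.30 and 0.23 ± 0.31 and did not pass.

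Slc25a37 (mitoferrin-1), which brings iron into the matrix for heme and iron-sulfur clusters, rose in both comparisons. Slc25a37 (ENSRNOG00000015495; GRCr8 chr15:50944085-50986506 in RefSeq) stood at 13.4, 13.3, 19.8, 17.1 and 9.76 CPM in NS and 22.1, 32.1, 32.8, 18.3 and 25.1 CPM in S. It was higher in S in 5 of 5 animals, by little in animal 4, and the groups overlapped. With inhibitor it stood at 15.4, 12.9, 10.5, 13.5 and 13.4 CPM in NS_PI and 31.5, 29.9, 26.8, 25.2 and 31.4 CPM in S_PI, without overlap. The rises were 1.81-fold (log2 0.85 ± 0.21, adjusted p = 0.00524) and 2.20-fold (log2 1.14 ± 0.21, adjusted p = 0.000369), and both calls held under all 13 alternatives, with adjusted p from 0.00173 to 0.0446 and from 1.66e-05 to 0.00327. The globins Hbb, Hba1 and Hba2, which mark red blood cells, had 0 counts in all libraries, and the red cell marker Alas2 reached at most 0.465 CPM, in NS_PI. Records that aligned to several places were not assigned to genes, so 0 counts do not show that globin transcripts were absent. Leukocyte markers moved in the same direction as Slc25a37, as given above. The part of either cell type in the rise of Slc25a37 was not tested. Slc25a28 (mitoferrin-2) had log2 fold changes of 0.43 ± 0.31 and 0.44 ± 0.30 and did not pass.

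**Figure D3:**
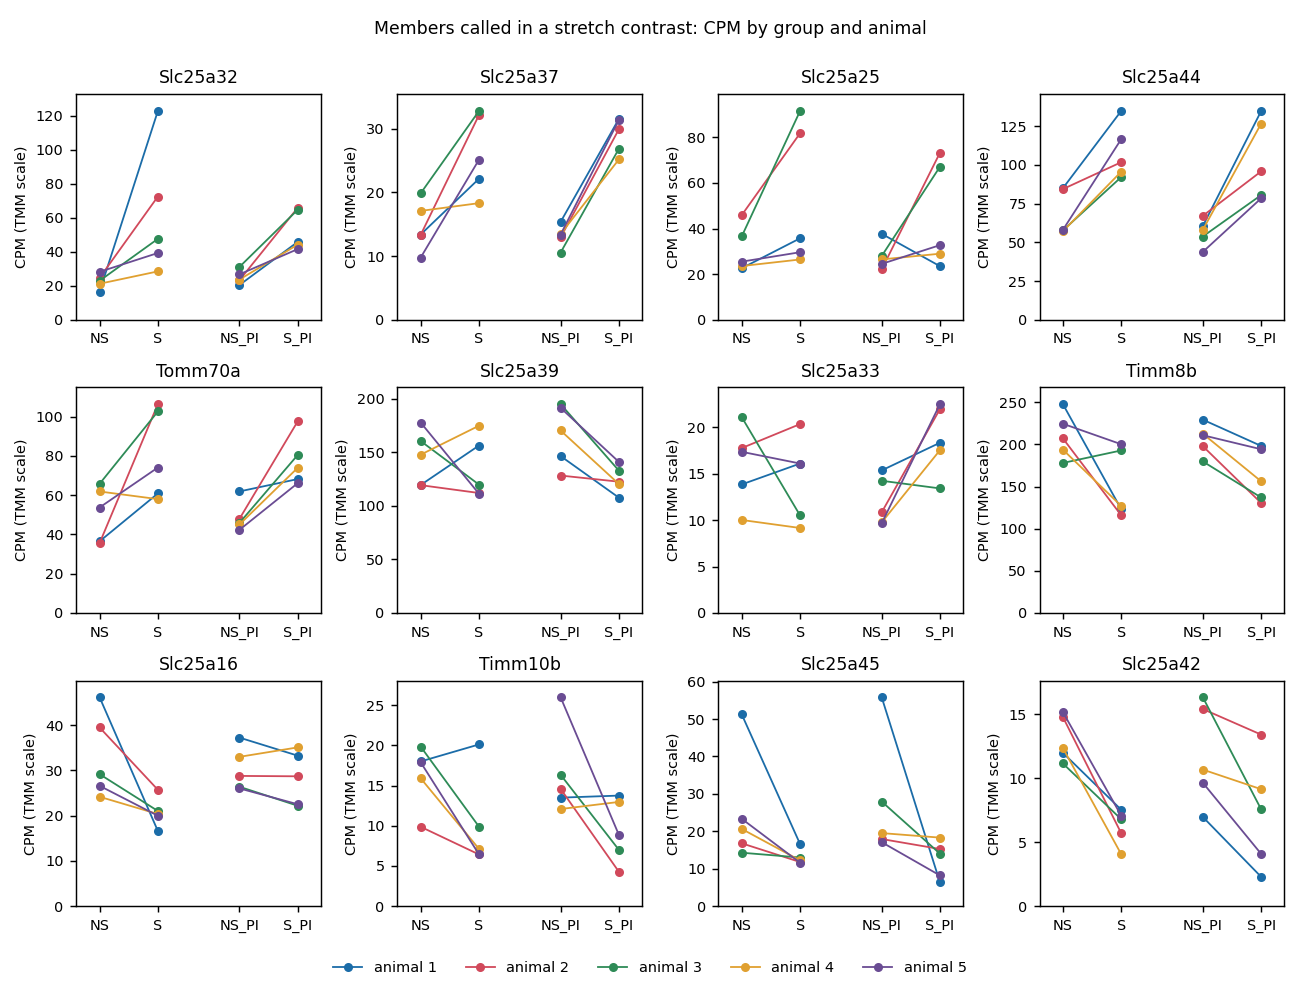
CPM of the 12 members called in a stretch comparison; each line joins the unstretched and stretched library of 1 animal, without inhibitor (left pair) and with it (right pair), and each panel has its own axis from 0. The lines of Slc25a44 and Slc25a37 rise in 5 of 5 animals on both sides, while animal 1 carries the highest NS and NS_PI values of Slc25a45.

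Carboxylate, carnitine and uncoupling-protein-like carriers were not called in either comparison by edgeR with TMM scaling, the filter on low counts and every animal. In S_PI vs NS_PI, Slc25a20 was called lower with upper-quartile scaling and by library size alone, and Slc25a1 by library size alone and without animal 1. The oxodicarboxylate carrier Slc25a21, left out by the filter on low counts, was called there when that filter was dropped. The citrate carrier Slc25a1 had log2 fold changes of 0.11 ± 0.26 in S vs NS and -0.59 ± 0.26 in S_PI vs NS_PI (adjusted p = 0.781 and 0.088). The dicarboxylate carrier Slc25a10 had -0.33 ± 0.28 and -0.01 ± 0.27, and the oxoglutarate carrier Slc25a11 0.22 ± 0.35 and -0.24 ± 0.34. For the carnitine/acylcarnitine carrier Slc25a20, which feeds fatty acid oxidation, the 95% intervals were -0.36 to 0.11 and -0.47 to 0.00. The uncoupling-protein-like Slc25a14 and Slc25a30 had values of 0.22 and 0.21, and 0.02 and 0.36. The outer membrane protein Slc25a46 was at 0.05 and -0.02. The median half-width of the 95% interval over members was 0.40 in S vs NS and 0.41 in S_PI vs NS_PI, so changes smaller than this were mostly not detectable at this depth and number of animals. These intervals are not adjusted for the number of genes tested, as the calls are. Some larger changes were thus not called, such as Slc25a42 at -0.72 in S_PI vs NS_PI.

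Other genes of the import pathway were read from 3 lists. In the order given below, 23.5%, 21.4% and 0% of their tested genes were called in S vs NS, against 24.9% of all genes. In S_PI vs NS_PI these shares were 0%, 28.6% and 0%, against 30.5% of all genes. The lists thus lay near or under the shares of all genes. Among import motor, intermembrane space and insertase genes, 1 of 17 tested rose and 3 fell in S vs NS, and 0 were called in S_PI vs NS_PI, where 2 had an unadjusted p below 0.05. Dnlz, which keeps the matrix Hsp70 soluble, rose by 0.53 ± 0.19. Pam16, a subunit of the import motor, had -0.72 ± 0.23, Mtx2, a partner of the outer membrane assembly machinery, -0.44 ± 0.14, and Aifm1, which serves the relay for disulfide-bonded imports, -0.37 ± 0.12, and these 3 fell. Among matrix processing, folding and quality control genes, 3 of 14 fell and 0 rose in S vs NS, and 3 rose and 1 fell in S_PI vs NS_PI. The peptidases Mipep and Pmpcb, which trim imported precursors, and Htra2, a protease of the intermembrane space, fell without inhibitor, with log2 fold changes of -1.08 ± 0.24, -0.45 ± 0.16 and -0.59 ± 0.21. With inhibitor the chaperonin Hspd1 and the proteases Afg3l2 and Lonp1 rose by 0.48 ± 0.14, 0.52 ± 0.14 and 1.13 ± 0.42, and Htra2 fell, at -0.62 ± 0.21. Among other mitochondrial channels and carriers, such as the voltage-dependent anion channels and the calcium uniporter, 0 of 13 were called in either comparison by edgeR, and 2 had an unadjusted p below 0.05 in each.

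Genes of the mitochondrial ribosome and of oxidative phosphorylation are given beside the members as a description. Of 60 tested mitochondrial ribosomal protein genes, 1 rose and 13 fell in S vs NS and 0 rose and 19 fell in S_PI vs NS_PI, with medians of -0.19 and -0.25. Of 69 nuclear genes of oxidative phosphorylation subunits, 0 rose and 7 fell, and 0 rose and 2 fell, with medians of -0.06 and -0.10. Called shares were 23.3% and 31.7% for the mitochondrial ribosome and 10.1% and 2.9% for oxidative phosphorylation, against 24.9% and 30.5% of all genes. Over all genes tested, 12.5% rose and 12.4% fell in S vs NS, and 15.2% rose and 15.3% fell in S_PI vs NS_PI. The share that fell was thus above that of all genes for the mitochondrial ribosome and under it for oxidative phosphorylation.

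NS_PI vs NS and S_PI vs S asked what the PERK inhibitor changes in unstretched and in stretched cells, and the interaction whether it alters the stretch effect. In all 3, edgeR called 0 of 38 members, and also 0 of all 8320 genes tested (0%), and DESeq2 called 0 members. At an unadjusted p below 0.05 there were 2 members in NS_PI vs NS, 3 in S_PI vs S and 2 in the interaction by edgeR, and 2, 1 and 1 by DESeq2. Log2 fold changes of the members ran from -0.55 to 0.47 in NS_PI vs NS and from -0.32 to 0.75 in S_PI vs S, and the median half-width of the 95% interval was 0.41 and 0.40. These 2 comparisons share libraries with the stretch comparisons.

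Of the members, 1 did not overlap between NS_PI and NS (0.709% of all genes) and 1 between S_PI and S (0.216%). Both were named after their values were seen. Timm9, a chaperone of carrier import, stood at 61.8, 53.3, 53.95, 57.1 and 71.6 CPM in NS and 46.5, 40.8, 37.97, 47.4 and 25.99 CPM in NS_PI. All 5 animals were lower with inhibitor, with a log2 fold change of -0.55 ± 0.19 (unadjusted p = 0.0095, adjusted p = 0.866). Slc25a5, an ADP/ATP carrier, stood at 7.04, 53.5, 50.7, 63.05 and 59.2 CPM in S and 67.04, 65.9, 76.4, 98.3 and 79.8 CPM in S_PI. All 5 animals were higher with inhibitor, with 0.75 ± 0.34 (unadjusted p = 0.0365, adjusted p = 0.999). Without animal 1, whose S library was far below the others, the log2 fold change was 0.49.

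The interaction is the difference of 2 log2 stretch effects, S_PI vs NS_PI less S vs NS. For the 5 members called in both stretch comparisons it was -0.35 ± 0.39 for Slc25a32 (95% interval -1.17 to 0.46), 0.28 ± 0.29 for Slc25a37 (-0.32 to 0.89), 0.17 ± 0.21 for Slc25a44 (-0.26 to 0.61), -0.02 ± 0.28 for Tomm70a (-0.60 to 0.56) and -0.16 ± 0.45 for Slc25a45 (-1.09 to 0.78). These intervals include 0 and also include differences of 0.5 on the log2 scale in at least 1 direction, so they do not show that the stretch effects were equal. Without animal 1 the value of Slc25a32 was 0.07, that of Slc25a45 0.04 and that of Tomm70a 0.12. Members called in only 1 stretch comparison are not thereby shown to differ between them. Slc25a33 had the largest positive interaction among the members, 0.74 ± 0.32 (0.07 to 1.41, unadjusted p = 0.0315, adjusted p = 0.984), positive in 5 of 5 animals. For Slc25a16 it was 0.55 ± 0.26 (unadjusted p = 0.0459, adjusted p = 0.984), also in 5 of 5 animals. Slc25a5 (0.50 ± 0.47, positive) and Slc25a1 (-0.70 ± 0.36, negative) likewise had 1 sign in 5 of 5 animals, and neither passed. The share of all genes with such agreement was not counted. For Slc25a25, Slc25a42, Timm8b, Timm10b and Slc25a39 the interaction was -0.16, 0.34, 0.12, -0.16 and -0.31, with adjusted p of 0.984 to 0.99.

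**Figure D4:**
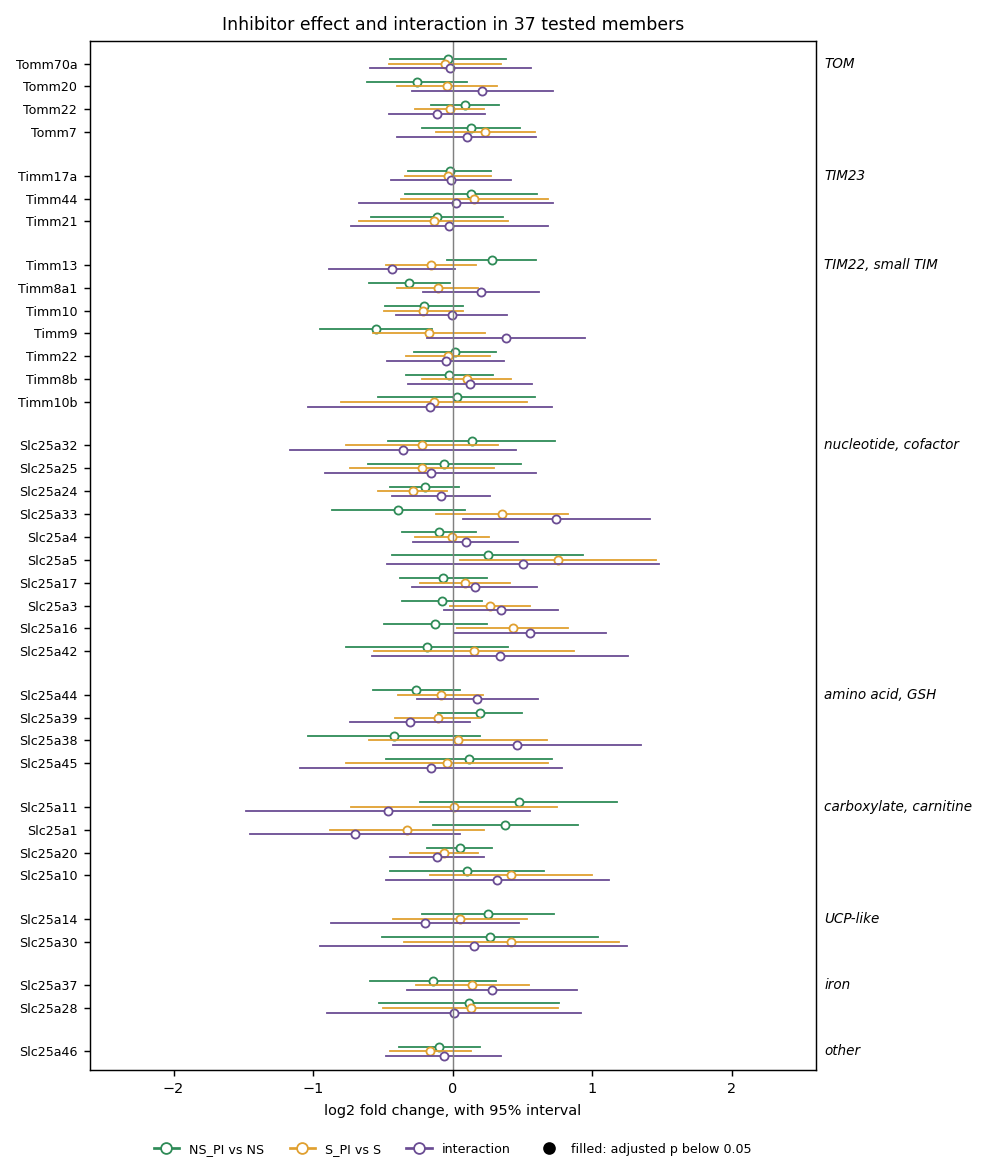
Log2 effect of the inhibitor in unstretched cells (green) and in stretched cells (yellow), and the interaction (purple), with 95% intervals, in 37 of the 38 tested members by role. No point is filled, since 0 of 38 passed in any of the 3, and among the widest departures are Timm9 at -0.55 in unstretched cells, Slc25a5 at 0.75 in stretched cells and Slc25a33 at 0.74 in the interaction.

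Animal took a larger raw share of the variance than stretch in 25 of the 38 tested members. A term with more levels takes a larger share by chance, and animal has 5 levels, more than stretch or inhibitor. The shares were not adjusted for this, so they do not rank animal against stretch. The median share of animal was 25.3% of the variance of a member's log2 CPM, that of stretch 12.2% and that of inhibitor 1.38%. Over all genes tested these were 37.5%, 13.1% and 1.22%. Stretch accounted for 76.9% in Slc25a37, 65.6% in Slc25a44, 64.5% in Slc25a32 and 55.7% in Tomm70a. In the authors' deposited table, whose header names neither the groups compared nor the direction, 3 member entries of 62 had an adjusted p below 0.05, Slc25a32, Slc25a44 and Slc25a37, with log2 fold changes of -1.14, -0.65 and -0.75. Their S vs NS values here were 1.41, 0.67 and 0.85, of opposite sign. The other members called in S vs NS also had the opposite sign in that table, for example Slc25a16 (0.56 against -0.66) and Slc25a42 (0.81 against -1.05). Unstretched over stretched cells would give these signs, though the header does not state it.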

How the data were processed

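Per the labels' protocols, libraries were made with the Lexogen QuantSeq 3' FWD kit. Per the submitters' processing notes, STAR, HTSeq, DESeq2 and the build rn6 were used; no version is stated there. The deposited counts are raw reads per gene symbol. Entries that name no gene stayed out of library sizes: records without a feature were 16.2 to 24.5% of all records, those aligned to several places 35.5 to 57.7%, and ambiguous ones 0.0872 to 0.145%. The authors' deposited table of log2 fold changes and adjusted p-values was used only where named.

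Counts were fitted in edgeR 4.0.16 (R 4.3.3) with the quasi-likelihood test, group and animal as terms, all 20 libraries, TMM scaling and filterByExpr (minimum count 10), which left 8320 genes and 12 residual degrees of freedom. Adjusted p-values are Benjamini-Hochberg values over all of these, called below 0.05, and all tests are two-sided. Intervals are 95%, and the floor of 3 counts covers counting error only. Reads carried no molecular identifiers that the sources used here mention. CPM uses TMM library sizes, and the direction in each animal was read from log2(CPM + 1).

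Same-numbered libraries deviated together (median correlation of deviations from group means 0.476, lowest 0.316, against -0.187 between different numbers), and each of the 20 libraries correlated best with its own number. The labels pool monolayers by animal, and pairing rests on the number in the titles. Alternatives were no block, only the groups compared, 3 other scalings, DESeq2 1.42.0, other filters and leaving out each animal.

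Given in full were members called in a stretch comparison and with a mean of at least 10 CPM (up to 6 in each direction), and the 4 highest; Slc25a42, Timm9 and Slc25a5 were added after their values were seen. The members and gene lists were chosen with earlier results of these data known. Of the members, 1 is in the counts but is not reported here by name or drawn. Motifs were searched in Python 3.11.15, and figures drawn with matplotlib 3.10.9.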

Additional observations from a re-analysis of the deposited data

Results flagged for a closer look

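In 7 of 72 member-and-group sets of 5 libraries (18 members given in full, 4 groups each), 1 library stood far from the other 4, and each time it was animal 1. Chance flags about 1 in 20 independent sets, but these sets are not independent, since 3 of the 7 are Slc25a45 and the groups share animals, and Slc25a5 was added after its values were seen. Slc25a45 stood at 51.2 CPM in NS, where the others were 14.3 to 23.3, at 55.8 CPM in NS_PI, where the others were 17.1 to 27.9, and at 16.6 CPM in S, where the others were 11.6 to 13.0. Timm10b stood at 20.1 CPM in S, where the others were 6.42 to 9.89. Tomm20 stood at 585 CPM in S, where the others were 214 to 320.0. Tomm70a stood at 61.9 CPM in NS_PI, where the others were 42.3 to 47.9. Slc25a5 was low, at 7.04 CPM in S, where the others were 50.7 to 63.0.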

How the results depend on the processing

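Slc25a32, Slc25a37 and Slc25a44 stayed past the threshold in both stretch comparisons under all 13 alternatives. In S vs NS, without the replicate block (the animal term), 4 members were higher and 1 lower, against 5 and 4; with only the groups compared, 3 were higher and 2 lower; leaving out 1 animal gave 3 to 5 higher and 1 to 3 lower. In S_PI vs NS_PI, without the replicate block 4 were higher and 1 lower, against 5 and 3; with only the groups compared 1 was lower, with upper-quartile scaling 6 and with library size only 7, and leaving out 1 animal gave 3 to 7 higher and 0 to 4 lower. The cause was not tested, apart from the fewer libraries in fits that left some out. The fit to only the groups compared lost Slc25a16, Slc25a25, Timm8b and Tomm70a in S vs NS and Slc25a33, Slc25a45 and Timm10b in S_PI vs NS_PI. Upper-quartile scaling and library size only lost Slc25a25 in the first and Slc25a33 in the second, DESeq2 size factors in edgeR lost Slc25a39, and no filter lost Slc25a33 and Slc25a39. Among calls gained were in S vs NS Slc25a24 (DESeq2, DESeq2 size factors in edgeR, the 10 CPM filter and without animal 5), Slc25a3 (upper-quartile and library size) and Timm10b (library size and without animal 1), and in S_PI vs NS_PI Slc25a20 and Timm8b with upper-quartile scaling and library size, Slc25a1 with library size, Slc25a1, Slc25a5, Slc25a25 and Timm8b without animal 1, Tomm20 without animal 2, and Slc25a21 and Slc25a29 without the filter on low counts. Slc25a42 was not tested at a mean of 10 CPM. The inhibitor comparisons and the interaction gave 0 calls in the alternatives run. The sign of Slc25a3 in S_PI vs NS_PI turned with upper-quartile scaling (-0.0536) and library size only (-0.0753), and that of Slc25a4 without the block in S_PI vs NS_PI (0.0184) and S_PI vs S (0.0048) and with library size only in S_PI vs S (0.0072). Leaving out 1 animal turned the sign of these log2 values, which did not pass in the fit to all animals. In S vs NS, the range was for Slc25a33 from -0.23 to 0.11, Slc25a39 from -0.21 to 0.0658 and Slc25a4 from -0.15 to 0.0074. In S_PI vs NS_PI, the range was for Slc25a3 from -0.0315 to 0.0627 and Slc25a4 from -0.12 to 0.0405. In NS_PI vs NS, the range was for Slc25a25 from -0.33 to 0.18, Slc25a37 from -0.25 to 0.0475, Slc25a45 from -0.0493 to 0.25, Timm10b from -0.10 to 0.13, Timm8b from -0.0602 to 0.0120 and Tomm70a from -0.24 to 0.0872. In S_PI vs S, the range was for Slc25a32 from -0.39 to 0.18, Slc25a39 from -0.21 to 0.0043, Slc25a4 from -0.0632 to 0.0271, Slc25a44 from -0.21 to 0.0328, Slc25a45 from -0.22 to 0.17, Timm10b from -0.34 to 0.0630, Timm8b from -0.0490 to 0.26, Tomm20 from -0.12 to 0.0154 and Tomm70a from -0.13 to 0.0156. In the interaction, the range was for Slc25a25 from -0.42 to 0.16, Slc25a32 from -0.51 to 0.0683, Slc25a4 from -0.0043 to 0.19, Slc25a45 from -0.38 to 0.0365, Timm10b from -0.48 to 0.0193, Timm8b from -0.0610 to 0.29, Tomm7 from -0.0585 to 0.20 and Tomm70a from -0.21 to 0.12. Depth and 5 animals limit the members to median 95% half-widths of 0.40 to 0.41 on the log2 scale, and 0.57 in the interaction.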
